A study of Homo sapiens with 12 samples.

Results

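The genes described here make, use and recover S-adenosylmethionine (SAM), the methyl donor of the cell, or control that synthesis. They are MAT2A, MAT2B, METTL16, AHCY, MTR, AMD1, MTAP, MRI1, APIP and ADI1, and were chosen by gene symbol, read from the annotation of each deposited row. The symbols gave 10 genes of the 58288 in the files, with 68 transcript models of 200401. Which measured values led to the choice of these genes is not recorded, so every difference in their levels is given as a description. An adjusted p then only says where a gene stands among all genes tested, and supports nothing on its own.

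Messenger RNA of HEK-293T, an established human line of embryonic kidney origin, was measured in 12 libraries in 4 groups of 3. All cells held a CIRTS effector, an RNA-targeting protein built from human protein parts that a guide RNA directs to a transcript. In nuclease-NT and nuclease-SMARCA4 the effector was the CIRTS-12 nuclease, with a non-targeting (NT) guide or a guide against SMARCA4. In YTHDF2-NT and YTHDF2-SMARCA4 it was CIRTS-3 YTHDF2, made with a reader of the RNA mark m6A, with the same pair of guides. Delivery, timing and batches are not given in the sources used here, and a batch that coincided with a group and the group itself cannot be told apart. In such bulk samples, fewer cells of a kind and less RNA per cell cannot be told apart either. The series calls the libraries of a group biological replicates, and p-values measure the spread between them. Where 4 values follow each other below, they stand in the order in which the groups were named here.

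MAT2A encodes the catalytic subunit of the enzyme that joins methionine and ATP into SAM, and MAT2B its regulatory subunit. When a methyl group has been passed on, AHCY splits the remaining S-adenosylhomocysteine, and MTR, methionine synthase, turns the homocysteine back into methionine. AMD1 draws SAM into polyamine synthesis, and MTAP, MRI1, APIP and ADI1 return the methylthio group left over from it to methionine. METTL16 is an RNA methyltransferase that reads the SAM supply from MAT2A mRNA: it methylates hairpins in the 3′ UTR, and when SAM is scarce it stays on the first hairpin and favours splicing of the last intron, which raises the amount of MAT2A mRNA. The mRNA levels measured here do not show SAM itself.

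MAT2A (ENSG00000168906.12) lies on the plus strand of chromosome 2 at 85539165 to 85545280 in GRCh38. The METTL16 target motif, searched as TACAGAGAA and TACAGAAAA, was found 6 times in the 3′ UTR of MAT2A-201, the full-length model of 9 exons, all in exon 9. The 6 sites are shown because the rest of the section asks on which MAT2A models the counts lie, and they are present on one of these models alone. Capitals mark the 9 bases of the motif, with 8 bases on each side, read 5′ to 3′ on the plus strand from GENCODE 29.
Site 1, chr2:85543804-85543828: gcgtaggcTACAGAGAAgccttcaa
Site 2, chr2:85544591-85544615: tgatgtcaTACAGAGAAgtcacagg
Site 3, chr2:85544776-85544800: ggtgtagcTACAGAGAAaccagctt
Site 4, chr2:85544891-85544915: ggcgtaagTACAGAGAAgccatcac
Site 5, chr2:85545006-85545030: aggtgtccTACAGAAAAaccttggg
Site 6, chr2:85545114-85545138: tggtgtggTACAGAGAAgccagctt

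The motif of site 1 starts at base 40 after the stop codon and that of site 6 at base 1350, in a 3′ UTR of 1508 bases. TACAGAGAA accounts for 5 of the sites and TACAGAAAA for 1. The other strand of the UTR held 0 matches. Among 7684 protein-coding genes whose longest 3′ UTR is at least that long, cut to the same length, 4.29% held a match on the sense strand and 5.11% on the antisense strand. In that set 8 genes had at least 2 sense matches and 1 gene, MAT2A, had at least 3. A match is a description of the letters and no measure of METTL16 binding.

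The last intron of MAT2A-201 runs from 85543035 to 85543669, 635 bases. Its donor site is shown because it separates the models: MAT2A-201 is spliced there, while MAT2A-202 reads on through 574 bases of the intron and MAT2A-205 through 184. The exon is in capitals and the intron in lower case.
Donor of the last intron, chr2:85543023-85543042: GGTCATTGTCAGgtaaagat

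MAT2A-202 and MAT2A-205 end within the intron. MAT2A-202 carries 0 of the 6 motif sites, and so do the other 4 models besides MAT2A-201. Its deposited biotype is protein coding, whereas MAT2A-203, MAT2A-204 and MAT2A-205 are of the retained-intron biotype. MAT2A-203, MAT2A-204 and MAT2A-206 did not pass the filter on low counts.

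Total estimated counts ranged from 9207196 to 18047859 per library, and every member had at least 417 in each. YTHDF2 matched the labels, at 4824 to 8024 CPM, counts relative to the scaled library size, in the 6 YTHDF2 libraries and 215 to 284 CPM in the 6 nuclease libraries. SMARCA4, the target of a guide, was at 237.6 ± 10.7, 236.2 ± 15.4, 262.5 ± 35.5 and 224.8 ± 17.0 CPM (SD, n = 3). The 7 HEK-293T markers summed to 973 to 1280 CPM, and 0 of them stayed below 1 CPM in every library. Most of that sum was VIM, at 628.6 to 768.8 CPM, and NEFM, at 144.1 to 286.5 CPM. The 2 blood markers summed to 0.406 to 1.22 CPM (1 of them below 1 CPM throughout), the 3 liver markers to 0.333 to 0.933 (all 3) and the 3 fibroblast markers to 9.73 to 13.8 (1). PAX2, at 1.361 to 4.016 CPM, and LHX1, at 4.069 to 7.84 CPM, of the HEK-293T list lay below COL1A1 of the fibroblast list, at 8.619 to 12.75 CPM. The summed values therefore do not set these 2 lists apart gene by gene. YTHDF2-NT 1 and YTHDF2-NT 2 stood apart: the deviation of a gene from its mean over the libraries ranked with gene length at a Spearman rho of −0.54 and 0.49 across 14809 genes, against −0.27 to 0.33 in the other libraries.

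Ordered by TPM, the length-normalized unit that lets genes be compared, AHCY was the most abundant member, at 206 ± 16.9 TPM (SD over 12 libraries), and ranked 1 in all 12. ADI1 at 87.8 ± 7.3 TPM and AMD1 at 71.5 ± 10.3 TPM followed, exchanging places between libraries. MAT2A averaged 58.4 ± 15.1 TPM and shared ranks 3 to 6 with APIP at 46.2 ± 4.24 TPM and MAT2B at 45.1 ± 4.51 TPM. MTAP, METTL16 and MRI1 lay lower, at 31.8 ± 6.52, 27.2 ± 3.65 and 22.3 ± 3.62 TPM. MTR had the lowest TPM of the 10 in every library, 14.7 ± 3.39. MAT1A, the liver isozyme of MAT2A, averaged 0.12 to 0.29 CPM per group and did not pass the filter.

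In CPM, MAT2A varied most among the members between libraries. The 3 nuclease-NT libraries had 123.6, 167.2 and 140.1 CPM, and those of nuclease-SMARCA4 had 92.68, 95.96 and 109.6. The 3 YTHDF2-NT libraries had 120, 148.2 and 147.4 CPM, and those of YTHDF2-SMARCA4 had 153, 185.6 and 166.9. In CPM, the 3 nuclease-SMARCA4 libraries were thus the lowest of the 12, with no overlap with any other group. The highest library was a YTHDF2-SMARCA4 one, but that group overlapped nuclease-NT, and nuclease-NT overlapped YTHDF2-NT. The highest MAT2A library was at 2 times the lowest, and the coefficient of variation over the 12 was 21.4%, against 6.13 to 14.7% in the other 9 members. Per length, MAT2A kept the same order of groups, at 73.0 ± 6.59 TPM in YTHDF2-SMARCA4, 64.9 ± 11.6 in nuclease-NT, 54.5 ± 14.1 in YTHDF2-NT and 41.1 ± 4.45 in nuclease-SMARCA4 (SD, n = 3). In TPM, however, the lowest group overlapped its neighbour: YTHDF2-NT 1, at 39.09 TPM, lay below nuclease-SMARCA4 3 at 46.25 TPM.

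**Figure D1:**
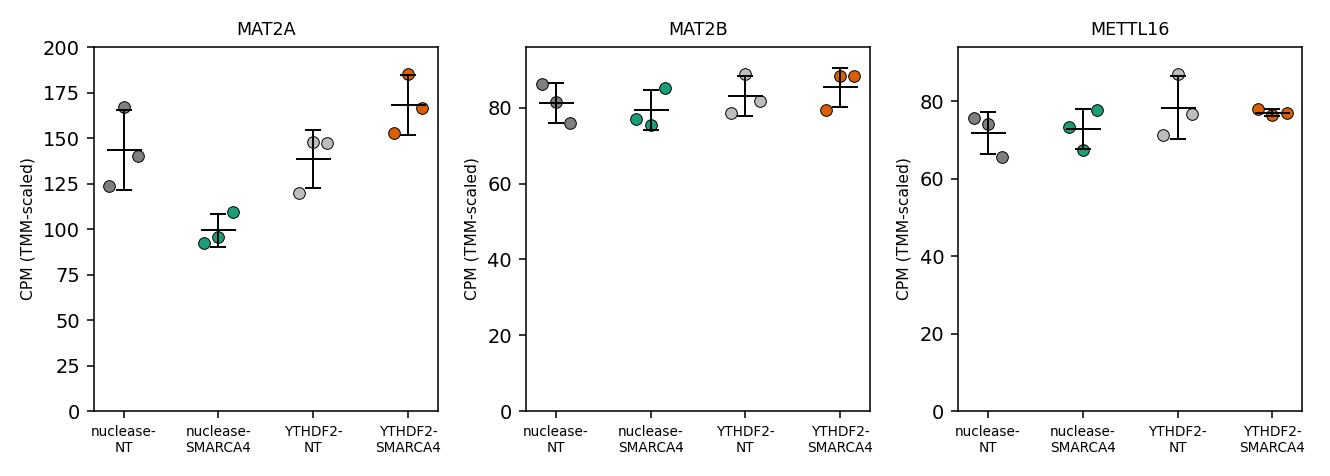
CPM of MAT2A, MAT2B and METTL16 in each library (points), with the mean and SD of the 3 libraries of each group (bars); the axes start at 0. MAT2A lies lowest in the 3 nuclease-SMARCA4 libraries, at 92.68 to 109.6 CPM, while each group of MAT2B and METTL16 overlaps the group next in mean.

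With the nuclease, mean MAT2A was 143.6 ± 22.0 CPM with the NT guide and 99.4 ± 9.0 with the SMARCA4 guide (SD, n = 3), which is −0.53 on the log2 scale (SE 0.121, 95% interval −0.79 to −0.27). Its p ranked 67 of 16297 genes, and with the quasi-likelihood test of edgeR and Benjamini-Hochberg adjustment it did not pass (adjusted p = 0.167). With YTHDF2 the direction was opposite, from 138.5 ± 16.0 to 168.5 ± 16.4 CPM, a log2 fold change of 0.28 (SE 0.12, edgeR adjusted p = 0.703). All 3 libraries with the SMARCA4 guide were below those with the NT guide for the nuclease and all 3 were above them for YTHDF2. The difference of these guide effects was 0.81 on the log2 scale (SE 0.17, 95% interval 0.45 to 1.18, edgeR adjusted p = 0.222).

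MAT2A was also compared between effectors for each guide. With the SMARCA4 guide it was 1.7-fold higher with YTHDF2 than with the nuclease (log2 0.76, SE 0.121), rank 5 of all genes by p and short of the threshold (edgeR adjusted p = 0.0794). With the NT guide the log2 difference was −0.05 (SE 0.12, edgeR adjusted p = 0.912). These comparisons share groups with those of the guides, so their values are not separate evidence. Each group, nuclease-SMARCA4 included, enters 3 of the 5 comparisons.

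The call on MAT2A moved with the libraries in the fit, as given in the closing section. An alternative chosen after the data were seen left out YTHDF2-NT 1 and YTHDF2-NT 2. Its log2 values were −0.53 for the guide with the nuclease and 0.76 between effectors with the SMARCA4 guide. The libraries left out enter neither comparison except through the shared spread. GGCX, a gene on the minus strand, shares 558 exon bases with the 3′ end of MAT2A, including sites 3 to 6, and whether the counting used the strand is not given here. GGCX was at 52.2 ± 2.52, 49.7 ± 2.94, 49.4 ± 0.364 and 50.2 ± 2.004 CPM (SD, n = 3), with log2 values from −0.08 to 0.09 over the comparisons.

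Of the 6 MAT2A models, 3 averaged at least 1 CPM in a group. MAT2A-201, with the motif sites, held most of the counts and carried the pattern of the gene: 133.0 ± 19.6 CPM, 92.5 ± 11.1, 129.0 ± 15.1 and 156.8 ± 15.1 (SD, n = 3). MAT2A-202, which ends in the last intron, was at 9.43 ± 1.81, 7.17 ± 2.46, 7.39 ± 3.36 and 11.5 ± 0.768 CPM in the same order. MAT2A-205 was at 1.56 ± 1.18, 1.13 ± 0.346, 0.788 ± 0.246 and 1.07 ± 0.397 CPM. Counts of single models also carry the uncertainty of how kallisto divides reads between models that share sequence.

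Fitted over 49518 transcript models, no MAT2A model passed. MAT2A-201 had log2 values of −0.52 for the SMARCA4 guide with the nuclease (SE 0.137, edgeR adjusted p = 1) and 0.76 for YTHDF2 over the nuclease with the SMARCA4 guide (SE 0.137, edgeR adjusted p = 0.762). The values of MAT2A-202 pointed the same way, −0.39 (SE 0.364) and 0.68 (SE 0.365), with wider errors. Those of MAT2A-205 had errors larger than themselves, −0.43 (SE 0.636) and −0.06 (SE 0.635).

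**Figure D2:**
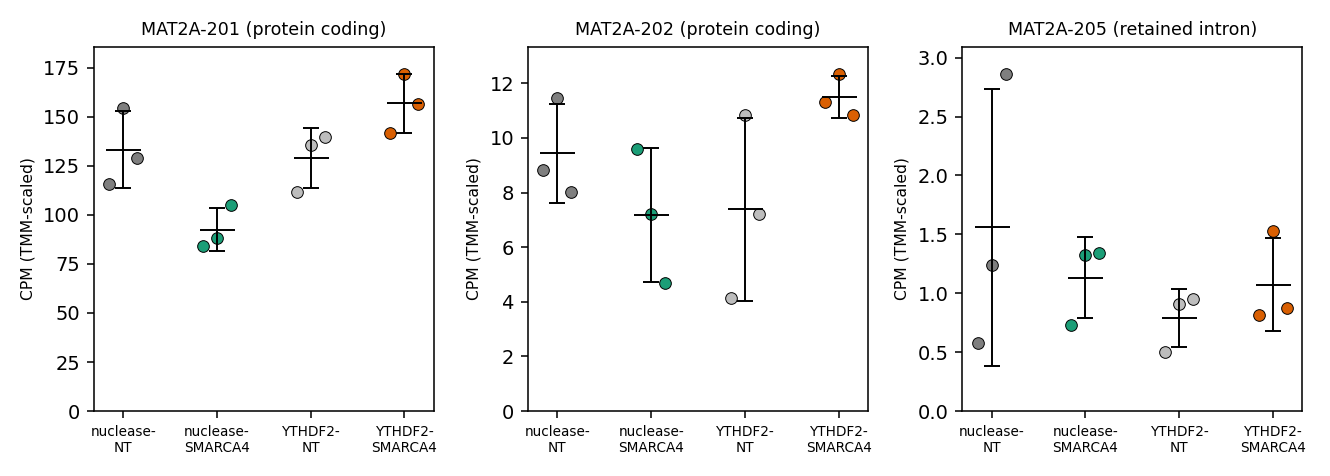
CPM of MAT2A-201, MAT2A-202 and MAT2A-205 in each library (points) with group mean and SD (bars, n = 3); each panel has its own axis from 0. MAT2A-201 shows the pattern of the whole gene, and MAT2A-205 stays below 3 CPM in all libraries.

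Models of the retained-intron biotype took a small part of the MAT2A estimated counts, 1.41 ± 0.644%, 1.27 ± 0.261%, 0.806 ± 0.0841% and 0.905 ± 0.333% in the 4 groups (SD, n = 3). Single libraries ran from 0.687% (21 of 3031 counts after rounding, 95% Wilson interval 0.454 to 1.06%) to 2.15% (29 of 1333, 1.52 to 3.11%), and these intervals cover counting error only. The mean difference in this share between guides within effector was −0.0192 percentage points (exact permutation test within strata, two-sided, p = 0.95). Within guide, the mean share with YTHDF2 minus that with the nuclease was −0.488 percentage points, which did not pass after adjustment over the 6 share comparisons (exact permutation test, two-sided, p = 0.03, adjusted p = 0.18). Over 3 against 3 libraries, where the smallest possible p is 0.1, it was 0.1 with the NT guide and 0.2 with the SMARCA4 guide by the exact permutation test.

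The biotype leaves out MAT2A-202, so the share was also taken over both models that run into the last intron, a choice made after the data were seen. MAT2A-202 and MAT2A-205 together took 7.59 ± 0.169%, 8.37 ± 2.78%, 5.80 ± 1.99% and 7.41 ± 0.461% (SD, n = 3). The lowest library was YTHDF2-NT 1 at 3.97% and the highest nuclease-SMARCA4 1 at 10.9%, and both groups that hold these libraries overlapped the others. Within guide, the difference between effectors was −1.38 percentage points (exact permutation test, two-sided, p = 0.19).

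METTL16 (chromosome 17, 2405562 to 2511891, minus strand) was steadier than its target. It had 75.65, 74.16 and 65.59 CPM in the nuclease-NT libraries, and 73.41, 67.32 and 77.59 with the SMARCA4 guide. With YTHDF2 it had 71.14, 87.09 and 76.67 CPM for the NT guide, and 77.95, 76.3 and 76.84 for the SMARCA4 guide. In CPM, each group overlapped the group next in mean, and the highest library, YTHDF2-NT 2, was 1.33 times the lowest. In TPM, however, the effectors lay apart. The nuclease groups were at 25.0 ± 2.1 and 23.9 ± 3.51 TPM, the YTHDF2 groups at 31.4 ± 1.62 and 28.7 ± 0.288 (SD, n = 3). The highest nuclease library had 27.35 TPM and the lowest YTHDF2 library 28.42. Below the gene, its models were less settled: protein-coding models took from 16.5 to 65.2% of METTL16 counts and processed-transcript models from 34.6 to 83.4%. METTL16-205, the model with the highest mean, ran from 18.4 CPM to 47.13 CPM, and METTL16-201, the protein-coding model of nearly the same length, from 11.26 to 52.52 CPM.

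MAT2B (chromosome 5, 163503114 to 163519336, plus strand) had the smallest variation of the 10 members in CPM. Its group means were 81.2 ± 5.20 CPM, 79.3 ± 5.27, 83.2 ± 5.25 and 85.5 ± 5.14 (SD, n = 3). The coefficient of variation of CPM over the 12 libraries was 21.4% for MAT2A, the catalytic subunit, and 6.13% for MAT2B. The ranking depends on the unit: in TPM, AHCY, ADI1 and APIP had smaller SDs relative to their means than MAT2B. MAT2B-202, its main model, averaged 69.4 to 81.6 CPM per group.

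AHCY (chromosome 20, 34280268 to 34311802, minus strand) had 394.1, 336.8 and 378.2 CPM in the nuclease-NT libraries, and 429, 461.1 and 412.3 with the SMARCA4 guide. With YTHDF2 it had 451, 322.7 and 366.1 CPM for the NT guide, and 359.5, 352.5 and 372.5 for the SMARCA4 guide. All 3 nuclease-SMARCA4 libraries were above those of nuclease-NT and of YTHDF2-SMARCA4, the reverse of MAT2A. In CPM, YTHDF2-NT spanned nearly the whole range. In TPM, however, its libraries lay close together at 194, 185.6 and 187.2, and its mean was the lowest of the 4 groups. The log2 value was 0.23 for the guide with the nuclease (SE 0.105, edgeR adjusted p = 0.442) and −0.26 for YTHDF2 over the nuclease with the SMARCA4 guide (SE 0.105, edgeR adjusted p = 0.385). In an alternative chosen after the data were seen, without YTHDF2-NT 1 and YTHDF2-NT 2, these log2 values were 0.23 and −0.27. Its 6 annotated pseudogenes summed to at most 0.0403% of the AHCY counts.

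MTR (chromosome 1, 236795281 to 236903981, plus strand) is the longest member, with a mean model length of 8537 bases, the 98.5th percentile of genes tested. Its CPM was 121.9 to 123.8 in nuclease-NT, 111 to 125.6 in nuclease-SMARCA4 and 111.2 to 122.5 in YTHDF2-SMARCA4. In YTHDF2-NT it was 74.76, 148.7 and 104.5, the lowest and the highest of the 12 libraries being those with the negative and the positive trend with gene length. The part of that trend in the MTR values was not tested. The fit of the closing section in which MTR passed left out the library with the positive trend. It kept the one with the negative trend, so it cannot separate MTR from that trend.

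AMD1 (chromosome 6, 110874770 to 110895713, plus strand) was at 201.5 ± 7.33 CPM, 189.7 ± 15.7, 208.8 ± 24.7 and 215.9 ± 1.84 (SD, n = 3). With the SMARCA4 guide the 3 YTHDF2 libraries, 214.5 to 218 CPM, were above the 3 nuclease libraries, 178 to 207.5 CPM. That difference was 0.19 on the log2 scale (SE 0.0861, edgeR adjusted p = 0.436). Its main model was AMD1-204, a protein-coding one, at 91.1 to 120.1 CPM per group. Its 4 annotated pseudogenes summed to at most 0.317% of the AMD1 counts.

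Among the salvage genes, MRI1, the methylthioribose-1-phosphate isomerase (chromosome 19, 13764532 to 13774282, plus strand), set YTHDF2-NT apart. It had 52.24, 54.67 and 55.2 CPM in the nuclease-NT libraries, and 51.56, 48.74 and 52.62 with the SMARCA4 guide. With YTHDF2 it had 43.03, 45.35 and 42.62 CPM for the NT guide, and 52.98, 56.44 and 57.09 for the SMARCA4 guide. In CPM, the 3 YTHDF2-NT libraries were the lowest of the 12, with no overlap with any group. In TPM they were at 14.25, 21.24 and 17.1, so YTHDF2-NT 1 and YTHDF2-NT 2 lay farther apart, and YTHDF2-NT 2 was above nuclease-SMARCA4 2 at 21.05 TPM.

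With YTHDF2, MRI1 with the SMARCA4 guide was 1.27-fold above its level with the NT guide (log2 0.35, SE 0.0693), rank 2 by p, and did not pass (edgeR adjusted p = 0.703). With the NT guide it was lower with YTHDF2 than with the nuclease (log2 −0.31, SE 0.0698, edgeR adjusted p = 0.23). The difference of guide effects was 0.43 (SE 0.098, edgeR adjusted p = 0.241). All of these rest on the same YTHDF2-NT libraries. MRI1-202, its main model, showed the same order, at 46.1 ± 0.936, 44.5 ± 4.05, 39.1 ± 1.082 and 48.3 ± 1.10 CPM (SD, n = 3). C19orf53 shares 115 exon bases with MRI1 and was at 111.5 ± 1.62, 125.9 ± 10.4, 127.0 ± 30.3 and 116.4 ± 4.84 CPM (SD, n = 3). Its 3 YTHDF2-NT libraries spread from 99.55 to 159.5 CPM.

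APIP, the dehydratase that follows MRI1 in the salvage pathway (chromosome 11, 34853094 to 34916499, minus strand), had 38.47, 35.85 and 43.82 CPM with the nuclease and the NT guide, and 44.2, 44.83 and 45.58 with YTHDF2 and that guide. It lay at 40.91 to 43.19 CPM in nuclease-SMARCA4 and 41.76 to 47.19 in YTHDF2-SMARCA4. In CPM, with the NT guide the YTHDF2 libraries were all above the nuclease ones, by 0.19 on the log2 scale (SE 0.0858, edgeR adjusted p = 0.441). In TPM these 2 groups overlapped, with YTHDF2 at 38.32, 51.15 and 46.98 and the nuclease at 44.23, 41.31 and 51.13. Between 29 and 47.5% of APIP counts lay on its protein-coding model, and 52.1 to 70.6% on the processed transcript APIP-202, its most abundant model. PDHX shares 259 exon bases with APIP and was at 48.6 ± 0.792, 53.3 ± 1.10, 49.2 ± 5.61 and 52.8 ± 2.45 CPM (SD, n = 3).

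MTAP, the phosphorylase at the start of methionine salvage (chromosome 9, 21802543 to 21937651, plus strand), was expressed in every library, at 65.67 to 89.85 CPM. Its lowest and highest libraries were again YTHDF2-NT 1 and YTHDF2-NT 2, and its group means lay between 73.0 and 78.0 CPM. Its models differed in kind from those of the other members: 20.0 to 28.5% of its counts lay on models of the nonsense-mediated decay biotype, against at most 7.54% in any other member. MTAP-201 was its main model, at 45.6 to 48.0 CPM per group.

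ADI1, the dioxygenase of the last step but one (chromosome 2, 3497361 to 3519736, minus strand), was at 139.1 ± 0.436 CPM, 128.1 ± 4.57, 151.4 ± 22.6 and 137.4 ± 11.5 (SD, n = 3). The 3 nuclease-SMARCA4 libraries, 124.4 to 133.2 CPM, were below the 3 of nuclease-NT, 138.8 to 139.6 CPM. In TPM the order of the groups was different, at 98.0 ± 2.97, 83.0 ± 4.94, 83.1 ± 1.96 and 87.3 ± 5.74 (SD, n = 3). There the 3 nuclease-NT libraries, 94.68 to 100.4 TPM, were the highest of the 12. All ADI1 counts lay on its 3 protein-coding models, of which ADI1-201 was the most abundant at 114.1 to 136.3 CPM per group.

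**Figure D3:**
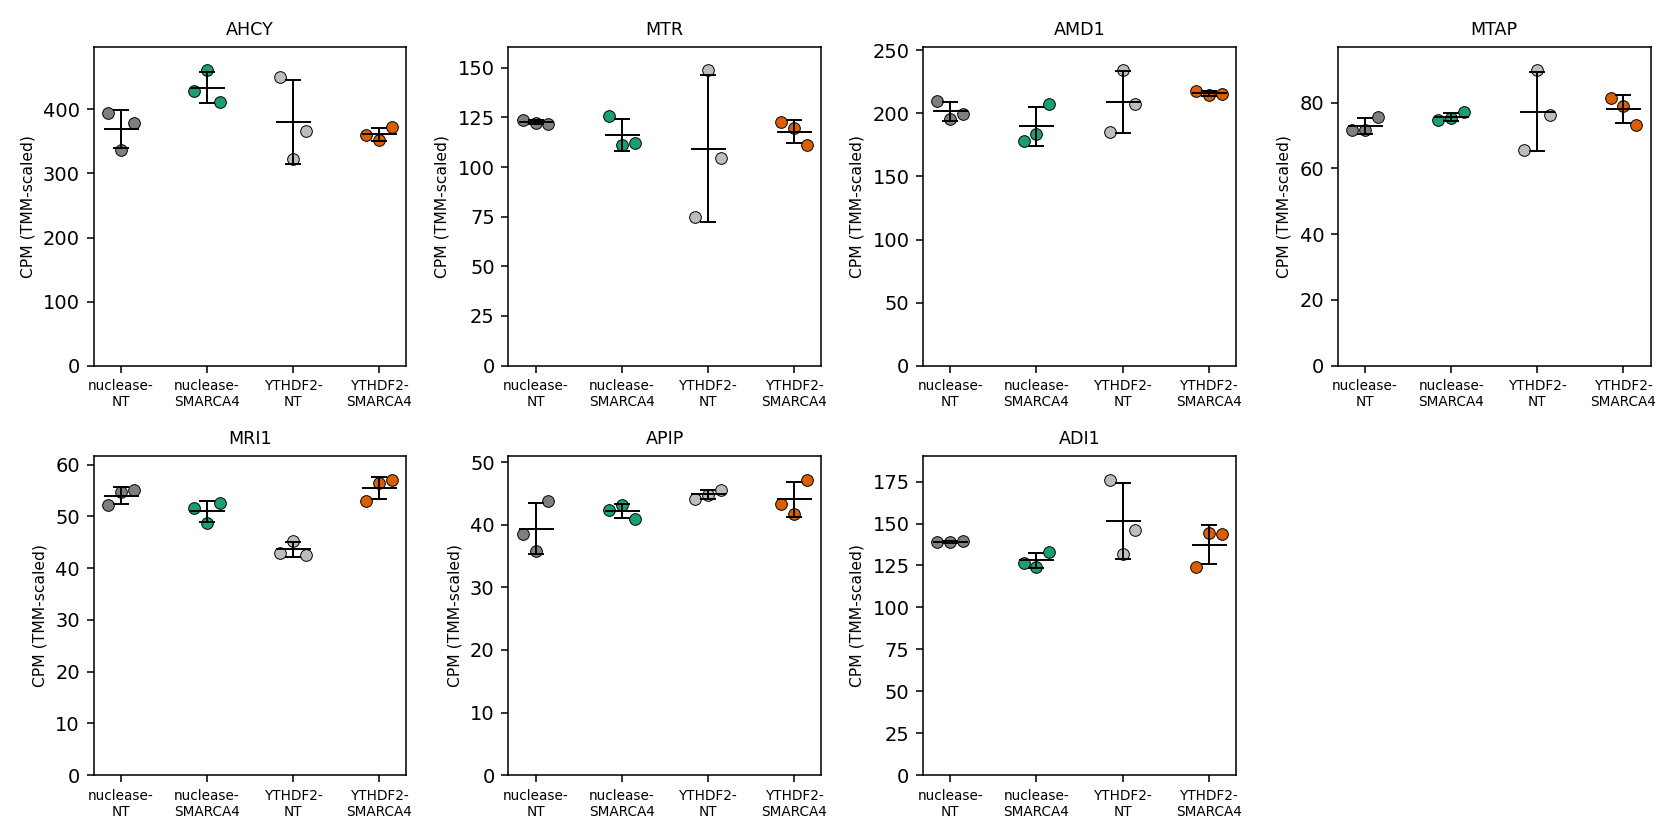
CPM of the 7 other members in each library (points) with group mean and SD (bars, n = 3); each panel has its own axis from 0. MRI1 is lowest in the 3 YTHDF2-NT libraries, at 42.62 to 45.35 CPM, and MTR spreads from 74.76 to 148.7 CPM in that group.

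All 10 members passed the filter on low counts, and 0 of 10 were called in any of the 5 comparisons by edgeR. Over all genes, 0.00614% were called for the guide with the nuclease, 0% for the guide with YTHDF2, 0% for the difference of guide effects, 0.0491% for YTHDF2 over the nuclease with the NT guide (0.0184% higher and 0.0307% lower) and 0.00614% with the SMARCA4 guide. At an unadjusted p below 0.05 the members numbered 2, 2, 2, 2 and 3 of 10 in that order, beside 10.9%, 6.82%, 11.1%, 10.9% and 11.5% of all genes. DESeq2 called 1, 0, 2, 1 and 1 members in the same order, in fits that called 135, 4, 37, 96 and 91 genes in all, and it gave MRI1 no adjusted p for the guide with YTHDF2.

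In CPM, groups without overlap between their libraries were found for 3 members with the guide and the nuclease (25.1% of all genes), 2 with the guide and YTHDF2 (9.27%), 2 between effectors with the NT guide (12.8%) and 4 with the SMARCA4 guide (26.7%). The median log2 value of the members was −0.06, 0.03, 0.03, 0.05 and 0.09 over the 5 comparisons, against 0, −0.01, 0, 0.01 and 0 for all genes. These medians lie within 0.09 of those of all genes. Of the 68 models, 40 passed the filter and 0 were called, beside 0.00202%, 0.00606%, 0.00606%, 0.00404% and 0.00808% of all models tested.

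**Figure D4:**
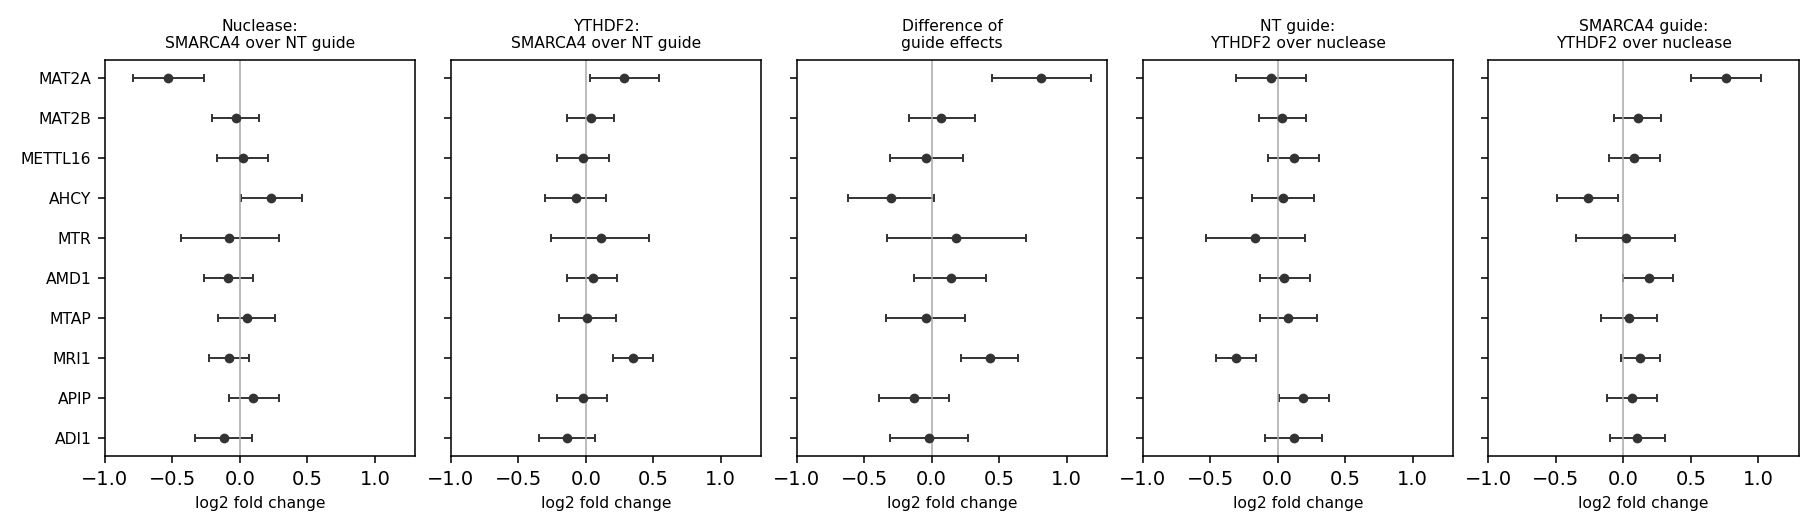
Log2 fold change of each member (points) with its 95% interval (bars) in the 5 comparisons, from the edgeR fit over all genes; the grey line marks 0. MAT2A lies at −0.53, 0.28, 0.81, −0.05 and 0.76 from left to right, and most other members lie near 0.

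Other genes of SAM synthesis and use, remethylation and folate supply, transsulfuration, polyamine synthesis, methionine uptake and MAT2A RNA control were taken from a list of 34, of which 29 were tested. None was called in any comparison by edgeR, in either direction, beside at most 0.0491% of all genes. At an unadjusted p below 0.05 they numbered 5, 3, 3, 4 and 5 of 29 in the order above, beside 10.9%, 6.82%, 11.1%, 10.9% and 11.5% of all genes. Those named were among the 2 with the smallest p in a comparison. SMS, which makes spermine, was at 132.6 ± 1.54 CPM, 156.4 ± 7.50, 153.8 ± 13.5 and 143.7 ± 8.21 (SD, n = 3). Its log2 value was 0.24 for the guide with the nuclease, −0.34 for the difference of guide effects and 0.21 between effectors with the NT guide.

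MTRR, which reactivates methionine synthase, was at 38.3 ± 1.88, 34.5 ± 1.10, 34.8 ± 5.45 and 42.4 ± 3.45 CPM (SD, n = 3). Its log2 value was 0.44 for the difference of guide effects and 0.30 between effectors with the SMARCA4 guide. MTHFD1L, a mitochondrial folate enzyme, had a log2 value of −0.19 for the guide with YTHDF2. MTHFD2, also mitochondrial, had 0.18 for the guide with the nuclease, and SHMT1, the cytosolic serine hydroxymethyltransferase, −0.18 between effectors with the NT guide. YTHDC1, a nuclear m6A reader, had 0.19 between effectors with the SMARCA4 guide and also 0.19 with the NT guide. The adjusted p of these values in edgeR ran from 0.292 to 0.703.

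Over the 12 libraries, the genes with the most similar log2 CPM to MAT2A among 9943 of at least 10 CPM on average were DDX5 (Pearson r 0.96), an RNA helicase, GTF2H1 (0.95), a subunit of the transcription and repair factor TFIIH, THAP9-AS1 (0.95), an antisense RNA, FBXO9 (0.95), an F-box protein, and NKTR (0.94), a cyclophilin of nuclear speckles. The points share library and depth, and 12 libraries in 4 groups are not 12 independent points, so the values are descriptive. Each of the 5 had its lowest group mean in nuclease-SMARCA4 and its highest in YTHDF2-SMARCA4. This order largely follows from choosing them by their correlation with MAT2A over the same libraries. DDX5 was at 456.4 ± 46.6, 361.8 ± 34.9, 444.9 ± 32.6 and 478.7 ± 29.5 CPM (SD, n = 3). Reads of THAP9-AS1 and of the gene opposite it cannot be told apart without the strand.

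**Figure D5:**
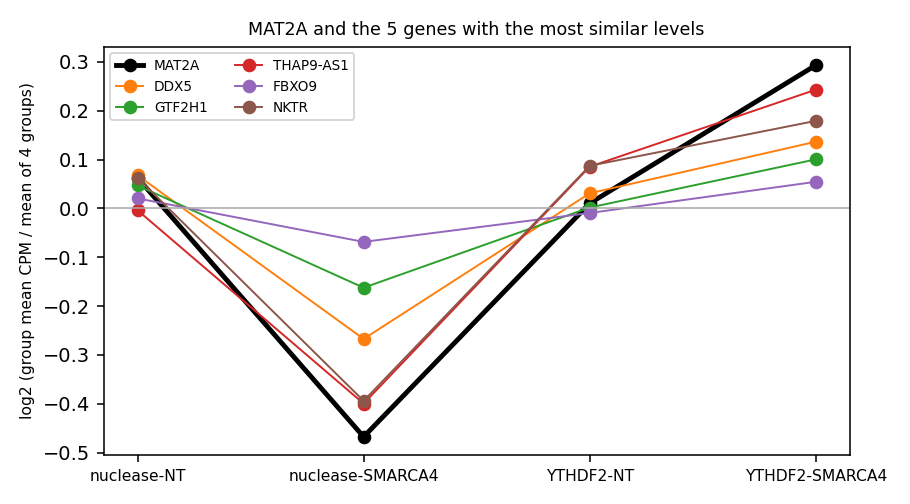
Log2 of the group mean CPM over the mean of the 4 groups for MAT2A (black) and the 5 genes with the most similar levels, in the 4 groups; lines only join the points of a gene. All 6 genes are lowest in nuclease-SMARCA4 and highest in YTHDF2-SMARCA4, with MAT2A spanning the widest range. The shared order largely follows from choosing the 5 by their correlation with MAT2A.

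The genes most similar to METTL16 were ERCC4 (r 0.95), a nuclease subunit of DNA repair, GNPNAT1 (0.92), an enzyme of amino sugar synthesis, NUDT4 (0.91), a hydrolase of inositol polyphosphates with a near-identical copy that its counts may be shared with, ZSCAN29 (0.91), a zinc finger protein, and USPL1 (0.90), a SUMO protease. In CPM METTL16 itself varied little, so these values follow small differences between libraries. MAT2A and METTL16 had an r of 0.37 and a Spearman rho of 0.41, and an r of 0.15 without the 2 libraries farthest from the median of MAT2A.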

How the data were processed

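For each of 12 libraries the authors deposited an estimated count and a TPM value per transcript model. The tools named in the submitters' processing notes are kallisto and sleuth, and the build is hg38, with no version of either tool. Per the file headers, the deposited TPM stands beside a length and an effective length, and TPM keeps no depth. Here the estimated counts were summed per gene ID and rounded. A quasi-likelihood model (edgeR 4.0.16, R 4.3.3; TMM, filterByExpr) was fitted with a mean for each of the 4 groups. It covered 16297 genes, held at least 99.8% of the counts of each library and had 8 residual degrees of freedom. Tests were two-sided, with Benjamini-Hochberg adjustment across the tested genes and a threshold of 0.05. The same model was fitted to transcript models. CPM is TMM-scaled. The edgeR fit was tested on simulated data.

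The 5 comparisons were the guides with each effector, the difference of these, and the effectors with each guide. Shares of MAT2A counts were compared by exact permutation tests. Members and lists were chosen with earlier results of these data known. Named were all members, MAT2A models of at least 1 CPM in a group, the most abundant model of the other members, the 2 further pathway genes of smallest p per comparison (1 of these results is not reported here), and the 5 genes most like MAT2A and METTL16. Sequences are from GENCODE 29, in which all 68 member models were found by ID and length. Alternatives included DESeq2 1.42.0, other scaling, filters and units, the replicate number as a block, and leaving out libraries. Same-numbered libraries did not deviate together (r of −0.25 to 0.25), so they were not treated as pairs.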

Additional observations from a re-analysis of the deposited data

Results flagged for a closer look

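The guide went with opposite directions of MAT2A in the 2 effectors: all 3 libraries with the SMARCA4 guide were below those with the NT guide for the nuclease, and all 3 were above them for YTHDF2. The test of the difference itself gave 0.81 on the log2 scale (SE 0.17, 95% interval 0.45 to 1.18), which did not pass over all genes (edgeR adjusted p = 0.222, range 1.19e-06 to 0.519 over the alternatives). MRI1 had opposite directions between effectors: the 3 YTHDF2 libraries were all below the 3 nuclease libraries with the NT guide (42.62 to 45.35 against 52.24 to 55.2 CPM) and all above them with the SMARCA4 guide (52.98 to 57.09 against 48.74 to 52.62 CPM). The difference of these effects, the same term of the model, was 0.43 on the log2 scale (SE 0.098) and did not pass (edgeR adjusted p = 0.241, range 0.0232 to 0.577 over the alternatives). Over all genes, the guides did not overlap for 25.1% with the nuclease and 9.27% with YTHDF2. The effectors did not overlap for 12.8% with the NT guide and 26.7% with the SMARCA4 guide. The share of all genes without overlap in opposite directions was not computed.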

How the results depend on the processing

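Over 19 or 20 alternatives, the log2 values of MAT2A kept their direction in 4 comparisons, and which of them passed varied between fits. With DESeq2 MAT2A was −0.53 for the guide with the nuclease (adjusted p = 0.0133), 0.82 for the difference of guide effects (0.011) and 0.76 between effectors with the SMARCA4 guide (1.14e-05), so 1, 2 and 1 members passed there, MRI1 being the second for the difference, and 1, MRI1, between effectors with the NT guide. Without a filter on low counts MAT2A was the 1 member past the threshold in the same 3 comparisons, at −0.52, 0.82 and 0.76. With only the 6 libraries compared it was −0.54 (1 member) and 0.76 (2 members, with AHCY). With the length trend removed it was 0.75 with the SMARCA4 guide (1 member). With YTHDF2-NT 1 and YTHDF2-NT 2 both left out, an alternative added after the data were seen, it was −0.53 and 0.76, with 2 members past the threshold in each, MAT2A and AHCY. In these fits 91 to 714 genes passed in the comparison concerned, apart from 37 for the difference with DESeq2 and 16 with the length trend removed. The DESeq2 adjusted p of MRI1 for the guide with YTHDF2 was not computed.

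Leaving out 1 library gave MAT2A from −0.63 to −0.41 for the guide with the nuclease, 0.19 to 0.36 with YTHDF2 (adjusted p of 0.0916 to 1), 0.70 to 0.92 for the difference and 0.69 to 0.84 with the SMARCA4 guide. With the NT guide it ran from −0.16 to 0.06, turning positive at 0.06 without nuclease-NT 2 and 0.04 without YTHDF2-NT 1, and 0.04 without both YTHDF2-NT libraries. Members past the threshold numbered 0 to 1 for the guide with the nuclease, 0 to 2 with YTHDF2, 0 to 3 for the difference, 0 to 2 with the NT guide and 0 to 1 with the SMARCA4 guide. Apart from the total given next, the numbers of all genes passing in these fits are not given here. Most of these member counts therefore have no share of all genes to stand beside. The largest counts came without YTHDF2-NT 2, a fit that called 1585 genes for the guide with YTHDF2: MRI1 at 0.38 and MTR at 0.40 passed there, MRI1 at −0.34 and MTR at −0.46 with the NT guide, and MAT2A at 0.87, MRI1 at 0.47 and AHCY at −0.40 for the difference. Without YTHDF2-NT 1 MAT2A passed at −0.53 (adjusted p = 0.0473) and 0.76 (0.00684), and without YTHDF2-NT 2 at 0.76 with the SMARCA4 guide (0.024). The fit without YTHDF2-NT 2 kept YTHDF2-NT 1, the lowest library of MTR at 74.76 CPM, so its MTR values do not test the trend with gene length. The count of member models called was 0 in all 15 alternatives of each comparison.

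The retained-intron share was less stable. Its difference between effectors within guide had an unadjusted p below 0.05 in 6 of 16 alternatives, although the adjusted p of the main value was 0.18: it was −0.846 percentage points with TPM (p = 0.1), −1.38 with the models that run into the last intron (p = 0.19) and −0.604 to −0.304 without single libraries (exact permutation p of 0.015 to 0.075). The difference between guides within effector turned to 0.0203 over all models outside the protein-coding biotype and 1.19 over those that run into the last intron, and ran from −0.136 to 0.164 without single libraries. The difference between guides was −0.371 to 0.23 with the nuclease, where it turned to 0.78 over the last-intron models, and −0.0926 to 0.208 with YTHDF2, where it was 1.6 over the last-intron models. The cause of these changes was not tested. At 11 to 34 counts per library on the retained-intron models, depth limits this share.

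With the replicate number as a block, MAT2A passed with the SMARCA4 guide (0.76, adjusted p = 0.0293, 1 member of the 3 genes called in that fit) and stayed short of the threshold elsewhere, at −0.52 with the nuclease and 0.81 for the difference. The block changed no other call on a member.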

Other observations

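Of the 45 pairs of members, MAT2A and AHCY had the most negative correlation of log2 CPM over the 12 libraries, a Pearson r of −0.83 and a Spearman rho of −0.86, noticed in these data. The r was −0.74 without the 2 libraries farthest from the median of MAT2A and −0.77 for the deviations from the group means, a measure by which 4 other pairs were more negative, MTR with ADI1 the most at −0.87. The libraries share groups and trends with gene length, so these values are descriptions. The highest r, 0.78, was that of MAT2B with METTL16 and with AMD1.

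MTR and MTAP, an r of 0.75 over all libraries, had −0.08 without the 2 libraries farthest from the median of MTR and 0.93 for the deviations from the group means.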
